A study of Homo sapiens with 10 samples.

Results

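The clustered protocadherins are 49 of the 31017 genes in the RNA-seq count table of this series, namely every gene on chromosome 5 whose symbol starts with PCDHA, PCDHB or PCDHG. These are 15 alpha genes, 16 beta genes (among them the pseudogene PCDHB17) and 18 gamma genes, all on the plus strand between positions 140165876 and 140892546 of GRCh37, a span of 727 kb. For the contact data, the members were the HindIII restriction fragments used as capture baits that hold the start of one of these genes. There were 36 such baits among the 21833 baits in the interaction lists, 8 for alpha, 14 for beta and 14 for gamma genes, and 6 of the 36 hold more than 1 of the gene starts, whose contacts cannot be told apart. By the count table, the starts of PCDHA11, PCDHA12, PCDHA13 and PCDHAC1 lie on fragments that are a bait in none of the lists.

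Clustered protocadherins are cell adhesion proteins of the neuronal surface, and each neuron carries its own small combination of them, by which it tells its own branches from those of other neurons. Every alpha or gamma gene has its own promoter and 1 large variable exon, which is spliced to 3 constant exons that all genes of that cluster share, whereas a beta gene is a single exon of its own. Which promoters are used is known to depend on a short promoter element, on the binding of CTCF and cohesin and on DNA methylation. The last genes of the alpha and gamma clusters, PCDHAC1, PCDHAC2 and PCDHGC3 to PCDHGC5, form the C type, whose use differs from that of the others.

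The study compared human embryonic stem cells (ESCs) of the H9 line with neuroectodermal cells (NECs) that were differentiated from H9 ESCs and harvested on day 7. There were 2 biological replicates of each cell type for polyadenylated RNA-seq and 2 for promoter capture Hi-C (PCHi-C), in which RNA baits pull the fragments that carry promoters, with whatever was ligated to them, out of a Hi-C library. Both groups come from 1 established line, and neither carries a transgene or deletion by the labels. Each RNA sample is a bulk preparation, so that fewer cells of a type and less RNA per cell cannot be told apart.

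The RNA-seq libraries held 19234087 and 25356382 counts (ESC replicates 1 and 2) and 20793224 and 24323762 counts (NEC replicates 1 and 2). By the column headers the ESC libraries shared a sequencing lane, and so did the NEC libraries, but a different one, so that lane and cell type cannot be told apart. Levels below are CPM, the counts scaled to a common library size by TMM, and a change is the log2 fold change of NECs over ESCs with its standard error (SE). A gene was called changed at an adjusted p under 0.05 in edgeR's quasi-likelihood test and an absolute log2 fold change above 1.5. Of 10 pluripotency markers 9 were called lower in NECs, and all 10 neuroectoderm markers were called higher. Of 9 tested markers of postmitotic neurons 5 were called higher, with a summed level of 271 and 286 CPM in ESCs and 348 and 317 CPM in NECs. The summed level of 10 mesendoderm markers was 92.7 and 221 CPM in the ESC replicates against 8.38 and 8.47 CPM in the NEC replicates, and 8 of the 9 tested were called lower. That of 10 neural crest markers was 164 and 149 against 213 and 118 CPM, with 5 called higher and 1 lower. This sum hides a split between NEC replicates 1 and 2, such as 18.4 and 0.689 CPM for SOX10. TFAP2B was at 15.9 and 1.46 CPM in them, whereas NGFR (78.4 and 78.9 CPM) and SNAI2 (24.5 and 19.7 CPM) were close. No marker of these lists was at 0 in all 4 libraries, and the part of such cells in the protocadherin results was not tested.

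The shared exons decide how the alpha and gamma counts must be read, and their sequences are therefore shown first. In GRCh37 the alpha constant exons lie at chr5:140358534-140358592, chr5:140362060-140362148 and chr5:140389212-140391932, and those of gamma at chr5:140874374-140874432, chr5:140884960-140885048 and chr5:140890514-140892542. The first and second are wholly coding and have the same lengths in both clusters, 59 and 89 bases. They are printed from the plus strand, with capitals where the alpha and gamma sequences have the same base at the same position.
alpha constant exon 1: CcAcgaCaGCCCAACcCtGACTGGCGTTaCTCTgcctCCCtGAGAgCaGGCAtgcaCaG
gamma constant exon 1: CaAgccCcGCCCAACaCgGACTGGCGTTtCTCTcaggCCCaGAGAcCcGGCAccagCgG
alpha constant exon 2: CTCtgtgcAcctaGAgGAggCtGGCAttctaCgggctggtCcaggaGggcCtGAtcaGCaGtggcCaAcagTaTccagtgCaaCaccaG
gamma constant exon 2: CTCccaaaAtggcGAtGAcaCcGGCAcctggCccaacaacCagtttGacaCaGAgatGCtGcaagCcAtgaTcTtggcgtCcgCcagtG
The first exon had the same base at 39 of 59 positions (66.1%) and the second at 29 of 89 (32.6%), so that the exons of one cluster differ from those of the other at many positions. Within a cluster the exons are one and the same stretch of DNA, and a read on them was counted for every gene of the cluster.

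In NECs 23 of the 45 tested members were called higher than in ESCs and 0 were called lower by edgeR. DESeq2 also called 0 lower, and 0 were lower at an unadjusted p under 0.05 in edgeR. At an adjusted p under 0.05 with no fold threshold 24 were higher and 0 lower, against 31.5% and 29.7% of all tested genes. With the fold threshold 11.4% of all 17564 tested genes were called higher and 9.68% lower, and the median log2 fold change was 0.01. By cluster, 0 of 15 alpha genes, 5 of 12 tested beta genes and all 18 gamma genes were called higher. The median log2 fold change was -0.23 in the alpha, 1.23 in the beta and 2.71 in the gamma cluster, over the genes that passed the filter on low counts. PCDHB1, PCDHB6, PCDHB8 and PCDHB17 did not pass it.

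**Figure D1:**
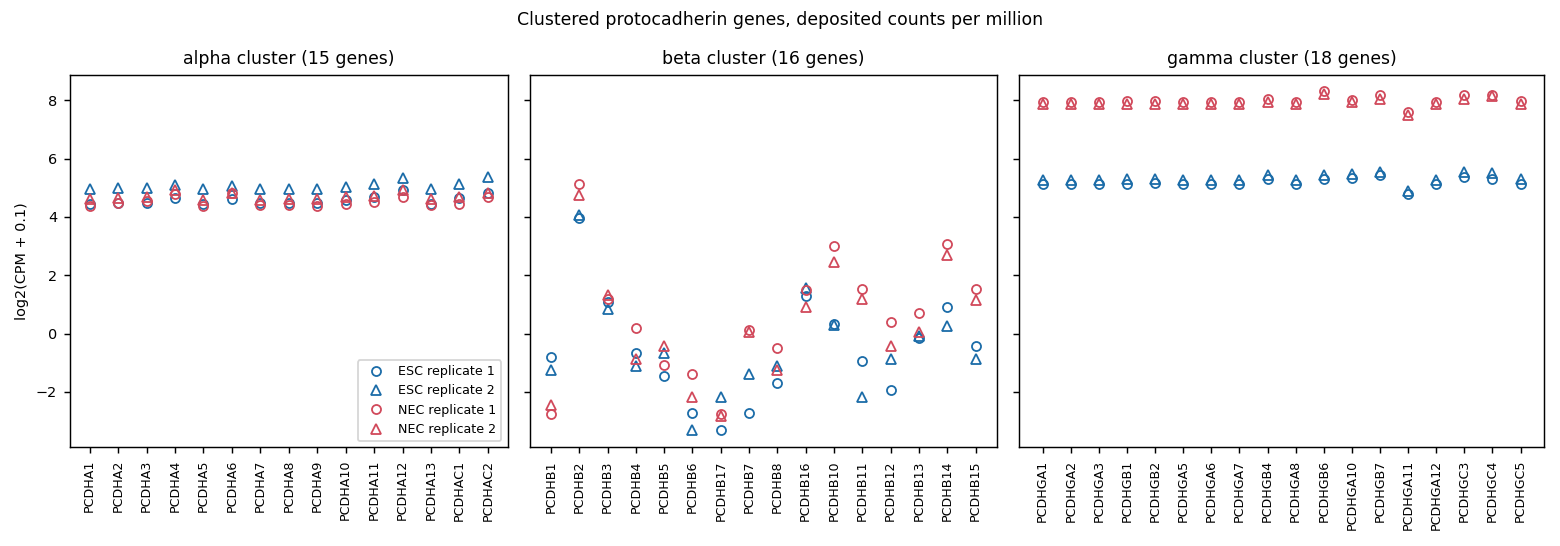
Level of each of the 49 clustered protocadherin genes in gene order, as log2(CPM + 0.1), with a symbol for each of the 4 RNA-seq libraries (ESC blue, NEC red, replicate 1 circles, replicate 2 triangles). The 18 gamma genes sit together near one level in each cell type, the 15 alpha genes sit together with no split between cell types, and the beta genes each have a level of their own.

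The gamma genes were close to identical, since most of their counts come from the shared exons. PCDHGA7 had the lowest count of the 17 gamma genes with the common end in every library, 653 and 951 counts in the ESC against 5289 and 5754 in the NEC replicates. No gamma gene with that end fell below these values, and this lowest count is called the gamma floor here. As a level, the floor was 34.6 and 38.5 CPM in the ESC and 248 and 233 CPM in the NEC libraries, which do not overlap. Its log2 fold change was 2.72 ± 0.10 (SE, n = 2 against 2, edgeR adjusted p = 1.58e-05), from a mean of 36.5 ± 2.74 (SD) to 240 ± 10.1 CPM. The 18 single genes had log2 fold changes from 2.56 (PCDHGA10) to 2.88 (PCDHGB6). PCDHGA11, which is annotated with an earlier end and so with less of the last exon, had 519, 736, 4125 and 4438 counts and a log2 fold change of 2.70. The 18 gamma calls therefore rest in large part on one and the same set of reads.

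The alpha genes showed the same structure with no called change. The alpha floor was 410 and 760 counts in the ESC and 444 and 592 counts in the NEC replicates, or 21.7, 30.7, 20.8 and 24 CPM. The groups overlapped, and the log2 fold change was -0.23 ± 0.18 (SE, edgeR adjusted p = 0.309). Per kilobase of constant exon the mean level was 9.14 CPM per kb for alpha and 16.8 CPM per kb for gamma in ESCs, and 7.8 and 110 CPM per kb in NECs. The gamma floor count was 1.59 and 1.25 times the alpha floor count in the ESC replicates and 11.9 and 9.72 times in the NEC replicates, within the same libraries. An exact two-sided permutation test of 2 against 2 libraries cannot give a p below 0.333.

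To describe the variable exons, the floor of the cluster was subtracted from each alpha and gamma count in each library, and the whole table was fitted again. What remains approximates the reads on a gene's own exon. It is too low where the gene that sets the floor has such reads as well. It may be too high where the unstranded counting took in reads of overlapping transcripts, or where similar exons share reads. On this scale 13 members were called higher and 1 lower, against 11.3% and 9.69% of all genes tested in that fit. The 13 were 5 beta, 6 gamma and 2 alpha genes, out of 31 members that passed the filter. This way of counting was chosen after the data were seen.

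**Figure D2:**
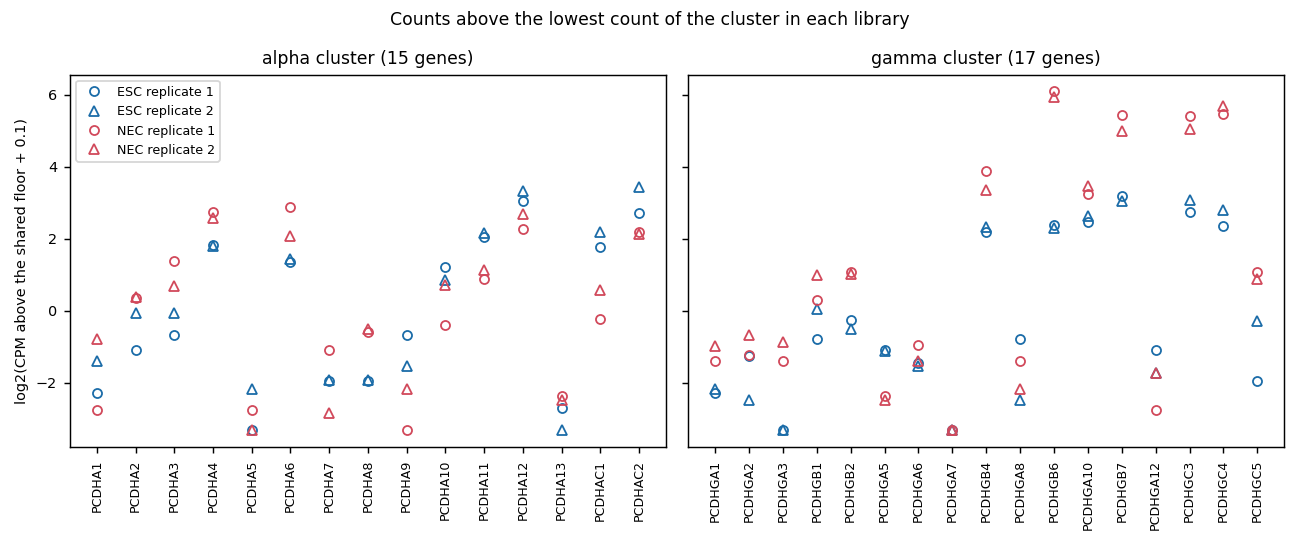
Counts above the shared floor for 15 alpha and 17 gamma genes, as log2(CPM above the floor + 0.1), with a symbol for each of the 4 RNA-seq libraries; a gene that sets the floor sits at the bottom. PCDHGB6, PCDHGC4, PCDHGC3 and PCDHGB7 stand highest in the NEC libraries, and PCDHAC1 lies lower in both NEC than in both ESC libraries.

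Among the gamma genes, 4 carried most of the reads above the floor in NECs. PCDHGB6 had 97 and 119 counts above the floor in the ESC against 1451 and 1510 in the NEC replicates. Its change was the largest of the members in this fit, 3.70 ± 0.12 on the log2 scale (edgeR adjusted p = 1.26e-05). PCDHGC4, a C-type gene at the end of the cluster, had 95 and 168 counts in ESCs and 940 and 1258 in NECs (log2 fold change 2.99 ± 0.17, edgeR adjusted p = 5.71e-05). PCDHGC3, another C-type gene, had 125 and 207 against 903 and 820 counts (2.32 ± 0.18, edgeR adjusted p = 0.00015). PCDHGB7 had 169 and 203 against 915 and 786 counts (2.12 ± 0.18, edgeR adjusted p = 0.000186). For each of these 4 genes the groups were far apart, and the call held when any 1 of the 4 libraries was left out.

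The other gamma genes had few reads above the floor. PCDHGB2 (14, 15, 43 and 48 counts in ESC replicates 1 and 2 and NEC replicates 1 and 2, log2 fold change 1.56) was called higher in all fits that leave out 1 library except the one without ESC replicate 2. PCDHGC5, the third gamma gene of the C type, had 3, 18, 43 and 43 counts and was called higher (1.99, edgeR adjusted p = 0.0194). It was not called without ESC replicate 1, and its log2 fold change ranged from 1.34 to 3.51 over the fits that leave out 1 library. PCDHGB1 had 9, 23, 24 and 47 counts and was not called (1.08, edgeR adjusted p = 0.0784). PCDHGB4 (84, 122, 310 and 252 counts, 1.39, edgeR adjusted p = 0.00243) and PCDHGA10 (103, 151, 200 and 270 counts, 0.81, edgeR adjusted p = 0.00951) were higher in both NEC libraries but under the fold threshold. PCDHGA7 had 0 counts above the floor in each library by construction, and PCDHGA1, PCDHGA2, PCDHGA3, PCDHGA5, PCDHGA6, PCDHGA8 and PCDHGA12 had between 0 and 13 and were not tested. Per kilobase of variable exon, the mean levels in NECs were 24.8 CPM per kb for PCDHGB6, 18.4 for PCDHGC4, 14.6 for PCDHGC3 and 14.4 for PCDHGB7, against 1.91, 2.29, 2.91 and 3.3 CPM per kb in ESCs. PCDHGB7 thus stood first in ESCs and PCDHGB6 in NECs.

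The alpha genes differed among themselves once the floor was taken off. PCDHAC1, the first of the alpha C-type pair, had 62 and 110 counts above the floor in ESCs and 16 and 34 in NECs, and was called lower (log2 fold change -1.85 ± 0.37, edgeR adjusted p = 0.00531). Without NEC replicate 1 it was not called, and its log2 fold change ranged from -2.37 to -1.49 over the fits that leave out 1 library. PCDHAC2, the other of the pair, had 121 and 266 against 96 and 106 counts, with a log2 fold change of -0.97 ± 0.28 (edgeR adjusted p = 0.0229) that did not reach the fold threshold. PCDHA12, the alpha gene with the most reads on its own exon per kilobase in ESCs (3.57 CPM per kb), had 154 and 245 against 100 and 157 counts (-0.71 ± 0.23), and PCDHA11 had 76 and 109 against 37 and 52 counts (-1.13 ± 0.25). These last 2 were lower in NECs at an adjusted p under 0.05 but under the fold threshold.

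Other alpha genes moved the other way. PCDHA4 had 65 and 84 counts above the floor in ESCs and 141 and 146 in NECs (log2 fold change 0.87 ± 0.21, edgeR adjusted p = 0.0116), and PCDHA6 had 46 and 65 against 156 and 101 counts (1.16 ± 0.33, edgeR adjusted p = 0.0214). Both were higher in each NEC library and under the fold threshold. PCDHA3 (10, 21, 54 and 37 counts, 1.51) and PCDHA8 (3, 4, 12 and 15 counts, 1.83) were called higher on few reads, and these calls held in only 2 and 1 of the 4 fits without 1 library. PCDHA2 (7, 21, 25 and 30 counts) and PCDHA10 (42, 42, 14 and 38 counts) did not pass the test. PCDHA1, PCDHA5, PCDHA7, PCDHA9 and PCDHA13 had at most 12 counts above the floor in any library and were not tested. At an adjusted p under 0.05 with no fold threshold, 4 of the 10 alpha genes tested on this scale were thus higher and 4 lower in NECs. Over all genes tested before the floor was taken off, the shares were 31.5% and 29.7%. The floor of the cluster was not called. The 4 that were lower are PCDHA11, PCDHA12, PCDHAC1 and PCDHAC2, which lie towards the downstream end of the cluster. The 4 that were higher, PCDHA3, PCDHA4, PCDHA6 and PCDHA8, lie upstream of them, and a link of change to position was not tested.

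A beta gene has no shared exon, and its counts are its own, apart from overlapping antisense transcripts, whose reads the unstranded counting cannot tell apart, and reads that near-identical beta genes may share. PCDHB10 had 22 and 28 counts in ESCs and 170 and 134 in NECs, or 1.17, 1.13, 7.96 and 5.43 CPM (log2 fold change 2.54 ± 0.30, edgeR adjusted p = 0.00068). PCDHB14 had 1.8 and 1.09 CPM in ESCs and 8.33 and 6.32 CPM in NECs (2.36 ± 0.32, edgeR adjusted p = 0.00114). PCDHB11 rose from 8 and 3 counts to 60 and 53 counts (3.24 ± 0.52, edgeR adjusted p = 0.00219), with a range from 2.52 to 4.27 over the fits without 1 library. The NEC libraries lay above the ESC libraries for each of them, with no overlap.

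PCDHB15 had 12 and 11 counts in ESCs and 59 and 52 in NECs (log2 fold change 2.18 ± 0.36, edgeR adjusted p = 0.00246). PCDHB7 had 1 and 7 counts in ESCs and 21 and 23 in NECs (2.37 ± 0.58, edgeR adjusted p = 0.0121), and this call was lost without ESC replicate 1 (1.72) and with DESeq2 (2.44, adjusted p = 0.0573). Its log2 fold change ranged from 1.72 to 4.03 over the fits without 1 library. The call of the other 4 beta genes held in each fit that left out 1 library and with DESeq2. PCDHB12 had 3 and 11 against 26 and 16 counts and missed the threshold (1.53 ± 0.57, edgeR adjusted p = 0.055).

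PCDHB2 was the beta gene with the highest level per kilobase of gene span in both cell types. It had 15.6 and 16.8 CPM in ESCs and 35 and 26.7 CPM in NECs, which is 5.92 and 11.3 CPM per kb on average, and its log2 fold change of 0.93 ± 0.16 (edgeR adjusted p = 0.00277) was under the fold threshold. The next levels per kilobase were 0.585 CPM per kb (PCDHB3) and 0.54 CPM per kb (PCDHB16) in ESCs, and 2.5 CPM per kb (PCDHB14) and 2.04 CPM per kb (PCDHB10) in NECs. PCDHB16, the tested beta gene with the smallest change, had 44 and 71 counts in ESCs and 58 and 44 in NECs, and the groups overlapped. PCDHB3, PCDHB4, PCDHB5 and PCDHB13 had log2 fold changes from 0.31 to 0.72 and adjusted p-values from 0.229 to 0.589 in edgeR. Of the genes left untested, PCDHB1 had 9 and 8 counts in ESCs and 1 and 2 in NECs, PCDHB8 had 4, 9, 13 and 8 counts, PCDHB6 had 1, 0, 6 and 3, and PCDHB17 had 0, 3, 1 and 1. When the filter on low counts was not applied, PCDHB1 was called lower (-2.50, edgeR adjusted p = 0.0266) and PCDHB12 higher (1.53, edgeR adjusted p = 0.0252).

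A promoter element of the letters TGNCGCT (N for any base) stood before many of these starts. RefSeq promoter windows of GRCh38.p14, 250 bases before to 50 after a gene's start, were at hand for 42 of the 49 members, and the letters were searched on both strands, after the data were seen. They occurred in 11 of 13 alpha, 12 of 13 beta and 5 of 16 gamma genes, or 66.7% of the 42, against 10.9% of all 35116 promoter windows. These counts take a match anywhere in the window, and PCDHAC2 and PCDHB8 had none wholly before the start. The narrower form TGGCGCT, which is contained in the first, stood in 12 of 13 beta, 2 of 16 gamma and 0 of 13 alpha genes, against 4.08% of all windows. In all 19 alpha and beta genes where the match lay before the start and the window was found once in GRCh37, the last match read in the direction of the gene. Windows of PCDHA4, PCDHA12 and the beta and gamma genes below are shown for their changes in level, with the 7 letters in capitals.
PCDHA4, chr5:140186553-140186607: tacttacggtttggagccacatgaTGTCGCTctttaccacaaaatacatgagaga
PCDHA12, chr5:140254818-140254872: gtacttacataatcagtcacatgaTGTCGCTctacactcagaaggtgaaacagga
PCDHB7, chr5:140552136-140552190: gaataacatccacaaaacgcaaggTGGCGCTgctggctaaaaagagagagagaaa
PCDHB10, chr5:140571861-140571915: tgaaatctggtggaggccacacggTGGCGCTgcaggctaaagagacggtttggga
PCDHB14, chr5:140602824-140602878: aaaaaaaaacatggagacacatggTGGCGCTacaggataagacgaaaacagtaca
PCDHB15, chr5:140624871-140624925: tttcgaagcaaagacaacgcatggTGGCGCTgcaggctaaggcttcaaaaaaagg
PCDHGC3, chr5:140855436-140855490: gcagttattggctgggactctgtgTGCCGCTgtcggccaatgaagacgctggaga
The windows are from the plus strand, with GRCh37 positions from an exact match of the RefSeq window. PCDHAC1, PCDHGB6, PCDHGB7 and PCDHGC4, whose counts above the floor changed, had no match in their windows, nor did PCDHB1. PCDHB12 and PCDHB13, which were not called, had the same TGGCGCT as PCDHB7, PCDHB10, PCDHB14 and PCDHB15, which were. The log2 fold change was 1.53 for PCDHB12 (edgeR adjusted p = 0.055) and 0.57 for PCDHB13 (edgeR adjusted p = 0.229). Whether the letters bear on a change in level was not tested. PCDHB11 was not among the windows searched. The RefSeq windows of PCDHA9 and PCDHA11 lie on the PCDHA10 bait, unlike the starts of these genes in the count table.

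The genes that act on or with clustered protocadherins were read from lists. For these and the lists that follow, the edgeR shares over all tested genes were 11.4% called higher and 9.68% called lower. Of 10 regulators of promoter choice and looping 0 were called in either direction by edgeR or DESeq2, with 2 higher and 4 lower at an unadjusted p under 0.05 in edgeR. Among them CTCF was at 133 and 139 CPM in ESCs and 108 and 118 CPM in NECs, and the cohesin subunit RAD21 at 340 and 316 against 406 and 395 CPM. REST, a repressor of neuronal genes, was at 97.2 and 108 against 57.7 and 58.3 CPM (log2 fold change -0.82). Of 12 enzymes and readers of DNA and histone methylation, the de novo DNA methyltransferase DNMT3B was called lower (1438 and 1676 CPM in ESCs, 159 and 296 CPM in NECs, -2.77 ± 0.29) and the demethylating enzyme TET2 was called higher (1.59 ± 0.23). Of 11 binding and signalling partners 5 were called higher and 0 lower, among them the kinases FYN (1.98 ± 0.11) and PTK2B (1.59 ± 0.20).

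Protocadherins outside the cluster moved in both directions, with 5 of 11 called higher and 2 lower by edgeR, and 4 and 2 by DESeq2. PCDH8 (log2 fold change 3.79 ± 0.20), PCDH17 (3.42 ± 0.26) and PCDH19 (2.97 ± 0.14) were called higher, and PCDH10 was called lower (-3.32 ± 0.26). Of 36 other genes whose start lies within 500 kb of the members' starts, 31 were tested, 2 were called higher and 1 lower by edgeR, and 0 higher and 1 lower by DESeq2. DIAPH1, which follows the gamma cluster, was at 275 and 300 CPM in ESCs and 130 and 151 CPM in NECs (-1.04 ± 0.11), and TAF7, which lies between the beta and gamma clusters, at 148 and 156 against 215 and 192 CPM (0.42 ± 0.10). The lncRNA AC005609.17, whose start shares the bait of PCDHA10, was called lower (-2.15 ± 0.45).

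In the contact data, an interaction is a pair of a bait and another fragment, the promoter-interacting region (PIR), to which the CHiCAGO program gave a score of at least 12. The 36 protocadherin baits had 476 interactions in the ESC list and 608 in the NEC list made from both replicates together (the merged lists). The lists of single replicates held 408 and 330 for ESCs and 541 and 405 for NECs, so that the groups overlapped. All of them were on chromosome 5. A protocadherin bait had a median of 13 interactions in ESCs and 15.5 in NECs, whereas the median over all baits with an interaction was 3 in both lists. At least 10 merged interactions were held by 25 of 36 protocadherin baits in ESCs (69.4%, against 13.1% of all baits) and by 29 of 36 in NECs (80.6%, against 12.8%).

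Many of the pairs recurred between lists. Of the 476 ESC interactions 302 were also in the NEC list, which is 63.4% of the ESC and 49.7% of the NEC interactions, against 44.2% and 44.3% for all baits. In ESCs 32.6% of the merged interactions were also called in both single replicates, against 22.9% for all baits, and in NECs 27.8% against 21.1%. All 4 replicates held 71 of the 1029 pairs found in any of them (6.9%, against 2.85% for all baits). These shares are descriptions, since interactions of 1 bait and of neighbouring baits are not independent.

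**Figure D3:**
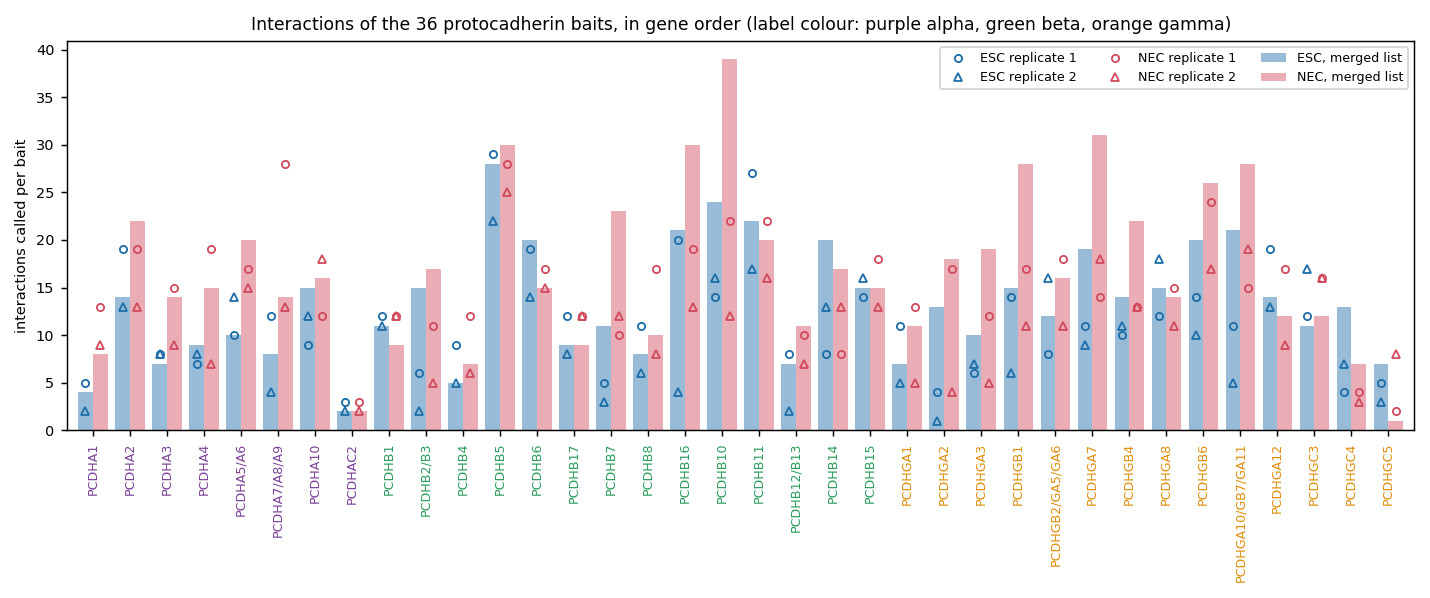
Number of interactions called for each of the 36 protocadherin baits in gene order, with bars for the merged lists (ESC blue, NEC red) and symbols for the single replicates. PCDHB5 has high numbers in all lists, PCDHAC2 has 2 or 3 in each list, and PCDHB10 and PCDHGA7 have the tallest NEC bars.

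By bait, the most interactions in ESCs were those of PCDHB5, PCDHB10 and PCDHB11, with 28, 24 and 22 in the merged list. In NECs PCDHB10 had 39, PCDHGA7 had 31, and PCDHB5 and PCDHB16 had 30 each. At the PCDHB5 bait the replicates held 29 and 22 interactions for ESCs and 28 and 25 for NECs, which overlap, although its gene had only 5, 13, 8 and 16 counts. The PCDHB10 bait, whose gene rose, had 14 and 16 in the ESC and 22 and 12 in the NEC replicates, which overlap as well. The lowest merged numbers were those of PCDHAC2 (2) and PCDHA1 (4) in ESCs and of PCDHGC5 (1) and PCDHAC2 (2) in NECs. The PCDHGC5 value did not recur in single replicates, which held 5 and 3 interactions for ESCs and 2 and 8 for NECs.

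Of the 36 baits 9 had more interactions in each NEC than in each ESC replicate (25%, against 13.1% of all baits) and 0 had fewer (against 12.8%). They were the baits of PCDHA1, PCDHA3, PCDHA5/PCDHA6 and PCDHA7/PCDHA8/PCDHA9 in the alpha cluster, PCDHB7 in the beta cluster, and PCDHGA7, PCDHGB4, PCDHGB6 and PCDHGA10/PCDHGB7/PCDHGA11 in the gamma cluster. The PCDHA1 bait had 5 and 2 interactions in the ESC and 13 and 9 in the NEC replicates. The PCDHB7 bait had 5 and 3 against 10 and 12, and the PCDHGB6 bait 14 and 10 against 24 and 17. The gene counts of PCDHB7 and of all gamma genes at these baits were called higher in NECs, the gamma ones in large part on shared reads. Above the floor PCDHGB6 and PCDHGB7 were called higher, PCDHGB4 and PCDHGA10 were not, PCDHGA7 had 0 counts by construction, and PCDHGA11 was not tested. The alpha genes at the 4 alpha baits were not called, although the counts of PCDHA3 and PCDHA8 above the floor were called higher. No p can be below 0.333 for 1 bait in an exact two-sided permutation test of 2 against 2.

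Most interactions ended within the gene array. In ESCs 360 of 476 merged interactions (75.6%) and in NECs 425 of 608 (69.9%) had their other end between the first and the last base of the members. In the single replicates the share was 66.9% and 77.3% for ESCs and 64.3% and 69.6% for NECs, which overlap. The array itself spans 727 kb. Merged calls of protocadherin baits had a median distance of 210 kb (ESCs) and 229 kb (NECs). For all baits, calls within a chromosome had 197 and 217 kb. In the ESC replicates the medians were 247 and 247 kb, against 377 and 389 kb for all baits. In the NEC replicates they were 303 and 287 kb, against 436 and 386 kb. Whether the share inside exceeds what such distances give was not tested. Before the first gene lay 10 interactions in ESCs and 36 in NECs, and beyond the last gene 106 and 147. In single replicates those before the first gene numbered 28 and 19 in ESCs and 54 and 26 in NECs, which overlap. Those beyond the last gene numbered 107 and 56 in ESCs and 139 and 97 in NECs, which overlap as well. The other end was a bait in 64.1% and 55.8% of the merged interactions, against 31.6% for all baits in either cell type. It was a protocadherin bait in 267 and 294 interactions. The 36 protocadherin baits are among the 175 fragments of the array, and a pair called from both ends is counted from each. How far this density of baits accounts for the share was not tested.

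**Figure D4:**
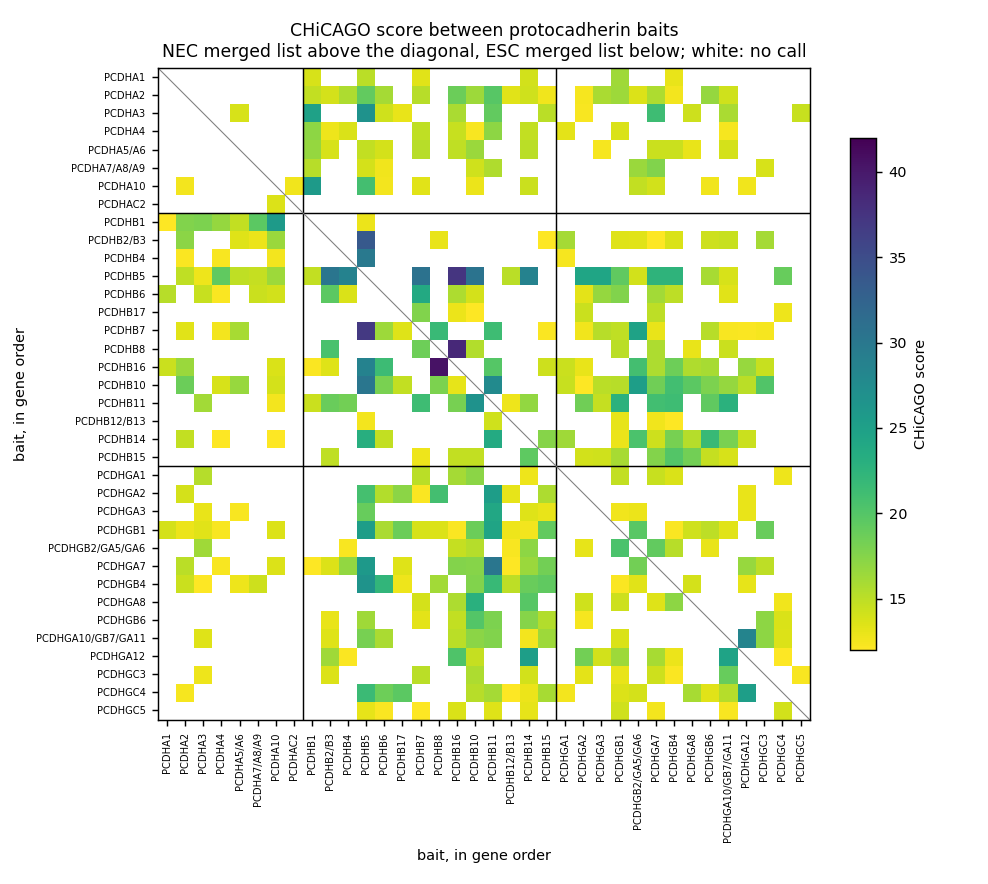
CHiCAGO score between each pair of the 36 protocadherin baits in gene order, for the NEC merged list above the diagonal and the ESC merged list below it; black lines separate the alpha, beta and gamma clusters, and white means no call. Nearly all alpha-alpha cells are white, while the alpha-beta, beta-beta, beta-gamma and gamma-gamma blocks are filled in part.

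Taking a pair of baits once, whichever was the bait, 226 pairs were called in the ESC and 226 in the NEC merged list, of which 154 were in both. Between beta and gamma baits 95 of 196 possible pairs (48.5%) were called in ESCs and 88 (44.9%) in NECs. Within the beta cluster the numbers were 36 and 27 of 91 pairs, and within the gamma cluster 33 and 29 of 91. Of 28 alpha pairs 2 were called in ESCs and 2 in NECs. Their median distance, 37.3 kb, was the shortest of the 6 groups, against 344 kb for alpha-beta and 229 kb for beta-gamma pairs. By the paper's methods, CHiCAGO allows for expected contacts and weights its test by distance. Few calls at a short distance are therefore no measure of few contacts.

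The pairs that join the alpha cluster to the others were more numerous in NECs. Between alpha and beta baits there were 40 of 112 possible pairs in ESCs and 50 in NECs. Single replicates held 38 and 31 (ESCs) against 49 and 44 (NECs). Between alpha and gamma baits, at a median distance of 564 kb, there were 20 in ESCs and 30 in NECs, with 20 and 23 against 30 and 32 in the replicates. In both groups of pairs the NEC replicates lay above the ESC replicates, whereas within the beta cluster they overlapped (31 and 22 against 29 and 13). The smallest p that an exact two-sided permutation test of 2 against 2 replicates allows is 0.333.

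Calls depended on which of the fragments served as the bait. Of the 226 pairs in ESCs 41 were called from both ends, and of the 226 in NECs 68 were. The PCDHB5 fragment, 16080 bases long, as a bait had 23 calls to other protocadherin baits in each merged list, but was the other end of 0 calls. For PCDHB11 the numbers were 19 as bait and 1 as other end in ESCs and 16 and 1 in NECs, for PCDHGA12 12 and 0 in ESCs and 11 and 0 in NECs, and for PCDHB15 13 and 0 and 14 and 2. The reverse held for PCDHGB1, with 5 calls as bait and 24 as other end in ESCs and 8 and 20 in NECs, and for PCDHB10, with 9 and 22 in ESCs and 11 and 22 in NECs. A low number of calls at a bait is thus no measure of how often that fragment is contacted. The part of fragment length, capture and read mapping in this was not tested.

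Of the 71 interactions called in all 4 replicates, 40 were from beta, 21 from gamma and 10 from alpha baits, and 47 joined 2 protocadherin baits. Ranked by the lower of the merged scores, the first joined PCDHB8 to the adjacent PCDHB16 fragment (score 40.48 in ESCs and 38.56 in NECs). PCDHB5 was the bait of the next 6 in that order, to PCDHB7 (37.06 and 30.67), PCDHB2/PCDHB3 (30.29 and 33.64), PCDHB10 (30.27 and 30.54), PCDHB4 (28.69 and 29.92) and PCDHB16 (28.67 and 37.36), and to a fragment in DIAPH1 (27.78 and 41.14). PCDHB1 to PCDHA10, at 192 kb, followed with 25.7 and 25.68. PCDHB11 to the same DIAPH1 fragment (24.76 and 39.66) and PCDHGA12 to PCDHGA10/PCDHGB7/PCDHGA11 (24.55 and 28.42) complete the first 10. A score has no replicate error of its own and gives no measure of contact frequency.

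**Figure D5:**
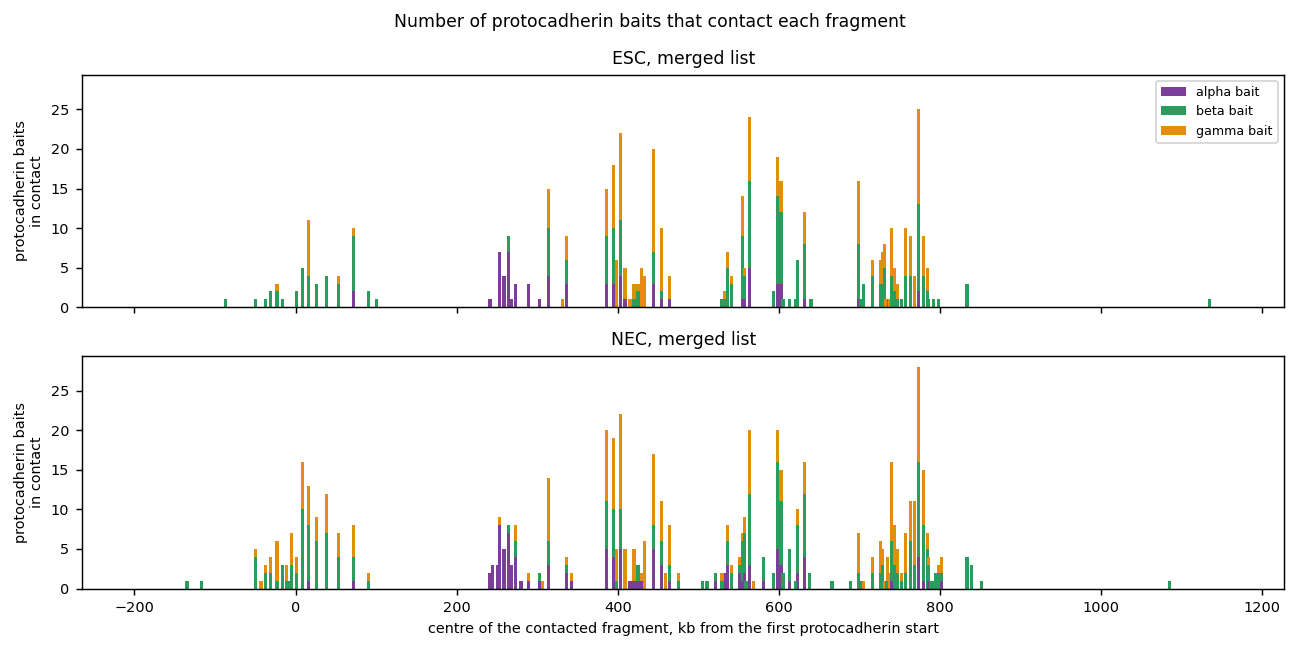
Number of protocadherin baits that contact each fragment in the merged lists, by the distance of the fragment's centre from the first protocadherin start in kb, with colours for the cluster of the bait. The tallest bar in both cell types lies 773.4 kb from the first start, beyond the last gene, with 25 baits in ESCs and 28 in NECs; the bar at 253.5 kb is nearly all from alpha baits.

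Beyond the last gene, one fragment was contacted by most of the array. It lies at chr5:140935964-140942566, in DIAPH1, and holds the start of the antisense gene DIAPH1-AS1, for which it is itself a bait. In ESCs it was contacted by 25 of 36 protocadherin baits (2 alpha, 11 beta and 12 gamma) and in NECs 28 (4 alpha, 12 beta and 12 gamma), more than any other fragment in either merged list. In the replicates 18 and 17 baits did so in ESCs and 24 and 22 in NECs, with no overlap. Its score with PCDHB10 was 17.79 in the ESC and 41.07 in the NEC merged list, and with the PCDHB10 bait the contact was called in ESC replicate 2 (15.78) and in both NEC replicates (23.24 and 25.36). With PCDHB11 the replicate scores were 21.55 and 17.9 in ESCs and 32.79 and 29.71 in NECs. Other baits went the other way, such as PCDHB17 with 17.56 and 13.86 in ESCs and 12.87 and 12.17 in NECs. Of the 23 baits that reached the fragment in both merged lists, the score was higher in NECs for 18 and lower for 5. Of the 9 called in all 4 replicates, 5 had both NEC scores above both ESC scores and 1 had both below. A second DIAPH1 fragment, chr5:140902976-140908147, was contacted by 10 baits in ESCs and 16 in NECs. Its replicate numbers were 9 and 9 (ESCs) against 17 and 11 (NECs). DIAPH1 itself fell by 1.04 on the log2 scale, under the fold threshold.

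Alpha baits shared a fragment of their own. It lies at chr5:140417501-140421335, between PCDHAC2 and PCDHB1, is no bait, and overlaps only the lncRNA gene ENSG00000288892 in the annotation. In NECs all 8 alpha baits contacted it and in ESCs 7 did, together with 0 beta baits in either cell type, 1 gamma bait in NECs and 0 in ESCs. With PCDHA10 the score was 22.69 and 19.96 in the ESC and 15.7 and 19.2 in the NEC replicates. With PCDHA5/PCDHA6 it was 15.68 and 15.1 in the ESC and 20.56 and 21.07 in the NEC replicates. The baits of PCDHA3 and PCDHA7/PCDHA8/PCDHA9 were likewise called in all 4 replicates. PCDHA4 reached it in 1 ESC replicate and both NEC replicates, and PCDHAC2, at 72.9 kb the nearest, in replicate 1 of each cell type.

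The letters CCA, any 2 bases, AG, any 2 bases and GGC in a row, written after the core of the motif by which CTCF is known to bind DNA, were searched on both strands of fragments in the array and its surroundings, after the data were seen. The fragment between PCDHAC2 and PCDHB1 held 2 matches, both on the minus strand, where 7.82% of the 9868 HindIII fragments of 3 to under 5 kb on chromosome 5 held any match and 0.537% held 2 or more. Another fragment of that size class in the array, chr5:140465984-140470641, also held 2 on the minus strand and was contacted by 1 bait in ESCs and 2 in NECs. The PCDHB5 bait held 2 on the plus strand and was the other end of 0 merged protocadherin calls. As a bait it had 28 interactions in ESCs and 30 in NECs. Other fragments, among them chr5:140320214-140335622, chr5:140487582-140493289, chr5:140647489-140657276 and chr5:140658010-140668050, held a match and were contacted by 0 protocadherin baits in the merged lists. The PCDHB10 fragment also held a match and was contacted by 22 baits in ESCs and 22 in NECs. In DIAPH1, chr5:140942567-140948718 held matches on the minus strand and was contacted by 9 and 15 baits. Over the 175 fragments of the array 10.9% held a match and 4% held 2 or more. Fragments with the letters were thus not all the other end of a merged protocadherin call. Of the 8 alpha baits 3 held a match, on the plus strand and within the variable exons of PCDHA4, PCDHA7, PCDHA9 and PCDHA10, and the other 5 held none, although they too contacted the shared fragment. A further match stood in the PCDHA13 exon. Of chromosome 5 fragments of 10 to under 22 kb, the range of these 3 baits, 26.4% held a match. The second fragment in DIAPH1, 5172 bases long, held 1 match on the minus strand. Any match was held by 6.43% of all chromosome 5 fragments, 7.82% of those of 3 to under 5 kb and 13.4% of those of 6 to under 8 kb. Matches are printed here to show the shared letters, each 5′ to 3′ on the strand of its match, with the match in capitals.
PCDHA4 exon, plus strand, chr5:140187211-140187258: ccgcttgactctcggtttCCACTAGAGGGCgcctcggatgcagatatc
PCDHA7 exon, plus strand, chr5:140214407-140214454: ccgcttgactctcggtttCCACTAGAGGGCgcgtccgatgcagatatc
PCDHA10 exon, plus strand, chr5:140236069-140236116: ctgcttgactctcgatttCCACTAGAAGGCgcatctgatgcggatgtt
PCDHA13 exon, plus strand, chr5:140262292-140262339: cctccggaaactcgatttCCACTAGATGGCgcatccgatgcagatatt
between PCDHAC2 and PCDHB1, minus strand, chr5:140419930-140419977: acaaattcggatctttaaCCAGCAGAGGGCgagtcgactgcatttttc
between PCDHAC2 and PCDHB1, minus strand, chr5:140420939-140420986: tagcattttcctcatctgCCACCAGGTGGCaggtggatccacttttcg
DIAPH1, minus strand, chr5:140904443-140904490: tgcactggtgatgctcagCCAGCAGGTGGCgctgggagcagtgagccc
A match describes the letters and is no measurement of binding, and the alpha exons are near copies of each other, so that their matches are not independent.

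In NECs 53 interactions were found in both replicates and in neither ESC replicate (5.15% of the 1029 pairs, against 2.46% for all baits) and the reverse held for 28 (2.72%, against 2.56%). Of the 53, 47 were also absent from the ESC merged list, and of the 28, 25 were absent from the NEC merged list. In the NEC set 12 interactions were from alpha, 17 from beta and 24 from gamma baits. Of its 53 other ends 19 lay beyond the last gene, against 5 of 28 in the ESC set. Among the NEC pairs were PCDHGB6 to a DIAPH1 fragment 120 kb away (17.78 and 16.01 in the replicates), PCDHB10 to a DIAPH1 fragment 365 kb away (17.05 and 16.18), and PCDHGA7 to PCDHA3 at 582 kb, which was also called from the PCDHA3 end (16.59 and 14.05). The highest merged score in the ESC set was that of PCDHB6 to PCDHB2/PCDHB3 (17.7 and 15.03 in the replicates). A pair that is not in a list may have scored just under 12 there, and the difference in score between cell types was not tested.

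By the starts in the count table, PCDHA11, PCDHA12 and PCDHA13, which have no bait, share the fragment chr5:140248659-140264250. It was the other end of 2 protocadherin calls in each merged list. The fragment with the PCDHAC1 start, chr5:140296319-140316016, was the other end of 0 protocadherin calls in all 6 lists.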

How the data were processed

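For RNA-seq, reads were mapped by the authors to GRCh37 (TopHat2 2.0.8b and Bowtie 1.0.0, per the submitters' processing notes) and counted per Ensembl gene, without strand. The deposited values are raw counts. Genes were kept with filterByExpr (minimum count 10), leaving 17564 of 31017, and fitted with edgeR 4.0.16 in R 4.3.3 (TMM, quasi-likelihood test, ESC against NEC, prior count 0.125, Benjamini-Hochberg adjustment over all tested genes). DESeq2 1.42.0 was an alternative. The fit was tested on simulated data. PCHi-C: the authors scored pairs of HindIII fragments with CHiCAGO for each replicate and for both combined, and the deposited score is at least 12 in each list. No read numbers accompany the scores, so their depth is unknown. The Hi-C samples were not used here.

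The members and the gene lists were chosen with earlier results of these data known. Genes were named by rule: called members (over 20, the 8 with the largest fold change per cluster), the C-type genes, and per cluster the 3 tested genes with the highest level and the one with the smallest change; other members are named for completeness. Baits were named by number of merged interactions, and interactions called in all replicates by the lower merged score. Replicates are biological by the labels. Replicate numbers were not used as pairs, since the correlation of same-numbered deviations was 0.074. Alternatives covered normalization, filters, score, bait and library choice. Exons and sequences came from GENCODE on GRCh37 and RefSeq. The match of 1 sequence is not reported here.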

Additional observations from a re-analysis of the deposited data

How the results depend on the processing

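The count of members called higher was 22 to 24 under the planned settings, with 22 to 24 when 1 library was left out and 22 with DESeq2, and the count called lower was 0 in all of them except 1 (PCDHB1) without the filter on low counts. With counts above the shared floor, a choice made after seeing the data, 13 were called higher and 1 lower. With the replicate number as a block, 23 were called higher and 0 lower, and the numbers do not pair the samples. PCDHA4 changed sign with library size alone (0.01), without ESC replicate 2 (0.18), without NEC replicate 1 (0.01) and above the floor (0.87). Over the fits without 1 library it ranged from -0.28 to 0.18. PCDHA6 did so with library size alone (0.02), without ESC replicate 2 (0.21) and above the floor (1.16), with a range from -0.27 to 0.21 without 1 library. PCDHB16 did so without NEC replicate 2 (0.05), with a range from -0.54 to 0.05. None of these 3 was called with all libraries. PCDHGA1, PCDHGA2, PCDHGA3, PCDHGA6 and PCDHGA7 had no value above the floor. Where 1 library was left out, the lone library of its group was assumed to vary like the other group.

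At a score of at least 15 there were 173 interactions in ESCs, 219 in NECs and 101 in both. Single replicates in place of the merged list gave 330 to 408 in ESCs, 405 to 541 in NECs and 165 to 242 in both, and 66.9% to 77.3% (ESCs) and 64.3% to 69.6% (NECs) inside the array. With each pair of baits counted once, 66.1% lay inside in NECs. The other interaction settings moved these values by less than 1.5 times, or by less than the spread between replicates. Depth limits the beta genes with few counts, and 2 libraries a group limit all tests.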
